A study of Mus musculus with 2 samples.

Results

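The genes described here make, carry, attach and remove fucose. They are Fut8 and 9 further genes of the GDP-fucose pathway: Gmds, Gfus, Fcsk, Fpgt, Slc35c1, Fut10, Fut11, Fuca1 and Fuca2. They were chosen by name: every array probe set whose platform annotation gives exactly 1 of these 10 gene symbols was taken, which made 24 of the 45101 probe sets on the array and 10 of 18193 named genes. The samples were cultures of mouse embryonic fibroblasts (MEFs), cells grown out of the connective tissue of embryos. One was homozygous for disrupted Fut8 (Fut8-/-) and the other carried both normal copies (Fut8+/+), and both grew untreated in serum-containing medium. The comparison asks how transcript levels differ between the genotypes. Each genotype is represented by 1 Affymetrix array, so no difference has a replicate check and no p-value is given. The design text speaks of 3 cultures per genotype. The sources used here do not say whether an array's RNA came from 1 dish or several, nor give the strain, the embryonic age or the disrupted part of Fut8.

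Fucose enters glycans from one activated donor, GDP-fucose. Cells make the donor in the cytosol, mostly from GDP-mannose through the dehydratase Gmds and the epimerase-reductase Gfus, and to a lesser extent by salvage of free fucose through the kinase Fcsk and the pyrophosphorylase Fpgt. The transporter Slc35c1 carries GDP-fucose into the Golgi, where Fut8, the alpha1,6-fucosyltransferase, is the enzyme that attaches fucose to the innermost N-acetylglucosamine of N-glycans (core fucose). Lysosomal Fuca1 and the secreted Fuca2 are alpha-L-fucosidases, which take fucose off.

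Upstream sequences are given for Fut8, the disrupted gene, and for both fucosidase genes, whose signals were lower in the Fut8-/- culture together with other genes of glycan breakdown. They are the 250 bases before a transcription start, 5′ to 3′, from RefSeq on build GRCm38.p6, and for Fut8 this is 1 of 4 starts listed. Of the 10 genes 6 had an entry in the promoter table. Capitals mark a GC box (GGGCGG, or CCGCCC on the other strand), and a CACGTG, the E-box core found in promoters of many lysosomal genes, would be marked in the same way.
Fut8 promoter, chr12:77238489-77238738, + strand: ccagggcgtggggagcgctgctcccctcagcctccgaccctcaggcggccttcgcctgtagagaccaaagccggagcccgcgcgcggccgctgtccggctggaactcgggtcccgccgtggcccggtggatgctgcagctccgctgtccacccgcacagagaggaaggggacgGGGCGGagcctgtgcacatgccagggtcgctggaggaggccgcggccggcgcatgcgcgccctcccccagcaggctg
Fuca1 promoter, chr4:135920476-135920725, + strand: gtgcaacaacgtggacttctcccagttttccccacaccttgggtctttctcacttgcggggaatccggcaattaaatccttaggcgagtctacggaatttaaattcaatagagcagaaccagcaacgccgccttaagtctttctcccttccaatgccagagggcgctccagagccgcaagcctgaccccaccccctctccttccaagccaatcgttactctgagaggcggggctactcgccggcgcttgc
Fuca2 promoter, chr10:13500778-13501027, + strand: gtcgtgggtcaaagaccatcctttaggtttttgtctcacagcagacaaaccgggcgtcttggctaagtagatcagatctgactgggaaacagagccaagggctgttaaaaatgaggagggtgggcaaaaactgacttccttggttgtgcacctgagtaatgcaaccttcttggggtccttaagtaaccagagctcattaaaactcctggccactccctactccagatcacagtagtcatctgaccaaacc
The Fut8 window holds 1 GC box, and neither motif is found in the Fuca1 and Fuca2 windows. Over all 32851 windows of this length in the table, 32.7% hold a GC box and 6.02% hold CACGTG. A match is a description of the letters only, and the arrays measured RNA, not binding.

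Fut8 was far lower in the Fut8-/- culture. Its brightest probe set, 1460319_at, gave a signal of 11.7 for Fut8-/- cells and 190.9 for Fut8+/+ cells, so that the Fut8-/- signal was 6.11% of the other as deposited. Ratios here are given after centring, which multiplies Fut8-/- signals by 1.16 so that the typical gene has a log2 ratio of 0. On that scale Fut8 was 14.1-fold lower in Fut8-/- cells (log2 ratio -3.81). Only 0.462% of the 10164 measured genes had a ratio as low or lower. A gene was counted as measured where its brighter array reached the 60th percentile of all scaled signals, 39.1. The scaled Fut8-/- signal of 13.6 lay just above the floor of 12.3, the 40th percentile, below which signals were taken as having no order.

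The other Fut8 probe sets were dim on both arrays and give no ratio. Probe set 1443656_at had a signal of 7.68 in Fut8-/- and 2.55 in Fut8+/+ cells. For 1456367_at the signals were 0.845 in Fut8-/- and 8.34 in Fut8+/+ cells. All 4 of these values lay below the floor, so the lower level of Fut8 rests on 1 probe set. Where that probe set lies relative to the disrupted part of the gene is not known here, so how the value bears on the genotype label was not checked. With the floor raised to the 60th percentile the log2 ratio was -2.29, and the median over the 3 probe sets, of which 2 are below the floor, was 0.

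**Figure D1:**
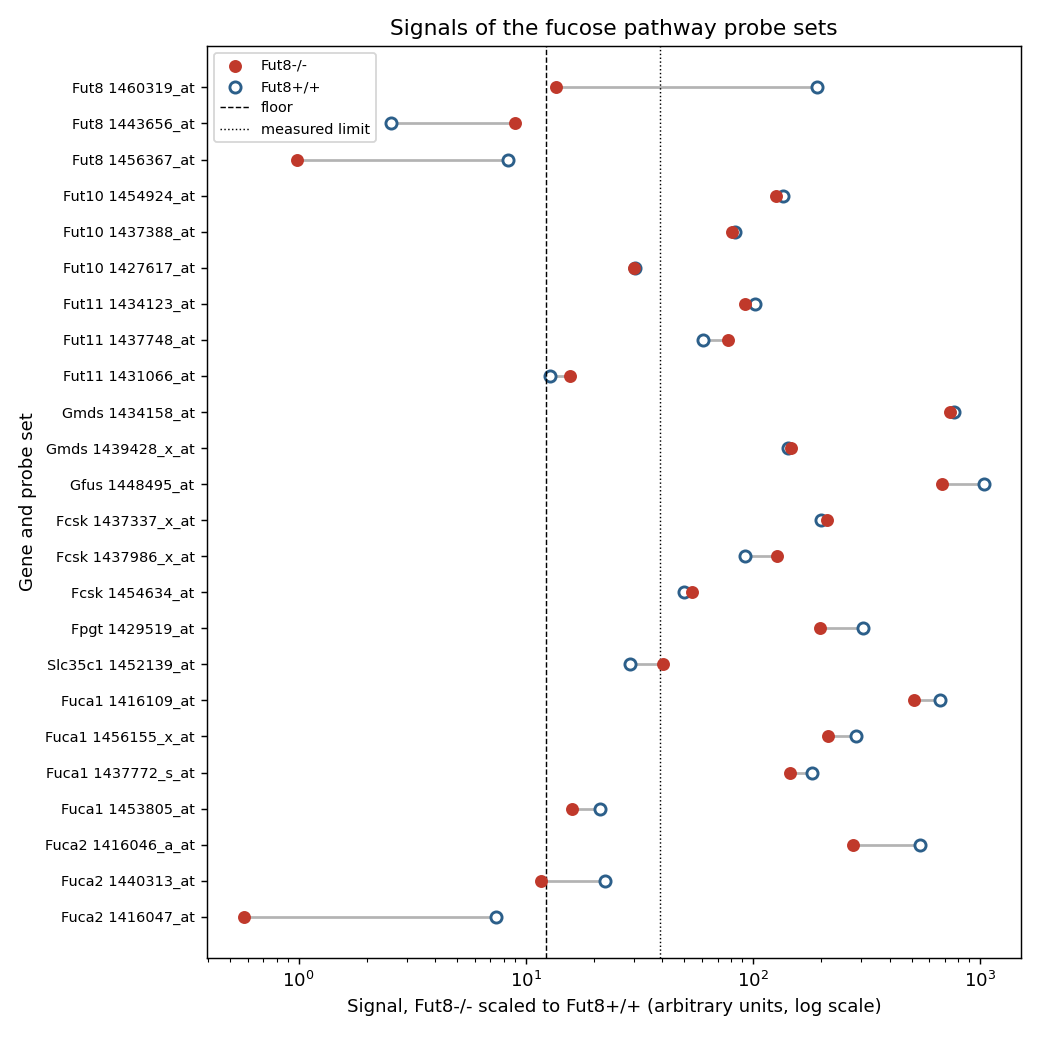
Signals of all 24 probe sets of the 10 genes on a log axis, with a filled point for the Fut8-/- array (scaled by 1.16) and an open point for the Fut8+/+ array. For Fut8 1460319_at the points lie at 13.6 and 190.9, while for most other probe sets right of the floor (dashed line, 12.3) they lie close together; the dotted line is the measured limit, 39.1.

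The enzymes that make GDP-fucose from GDP-mannose differed little or moderately between the cultures. Gmds, which removes water from GDP-mannose in the committed step, had a signal of 636.7 in Fut8-/- and 766.5 in Fut8+/+ cells at 1434158_at. Its second probe set, 1439428_x_at, had 126.1 in Fut8-/- and 142.7 in Fut8+/+ cells. After centring both were near 0, with log2 ratios of -0.05 and 0.04. Gfus, which completes the conversion to GDP-fucose, had 584.3 in Fut8-/- and 1038 in Fut8+/+ cells at its only probe set, 1448495_at. It was 1.53-fold lower in Fut8-/- cells (log2 ratio -0.61), and 15.7% of measured genes had a ratio as low or lower.

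Upstream of Gmds, the genes that supply GDP-mannose gave 1 lower and 0 higher by 2-fold or more among 7 measured of 8 listed. The list median was -0.16, against 0.00 over all measured genes, of which 8.46% were lower and 6.08% higher by that much. Hexokinase 2 (Hk2), which phosphorylates glucose, was the lower one, 2.29-fold, with 236.8 in Fut8-/- and 630.8 in Fut8+/+ cells. The phosphomannomutase genes, whose enzymes turn mannose-6-phosphate into mannose-1-phosphate, were the highest of the list. Pmm2 had 256.4 in Fut8-/- and 186.4 in Fut8+/+ cells (log2 ratio 0.68), and its other 2 probe sets were also higher, at 0.87 and 1.28. Pmm1 had 567.9 in Fut8-/- and 425.4 in Fut8+/+ cells (0.64), with 1.03 at its second probe set.

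In the salvage route the kinase was near level between the cultures and the pyrophosphorylase had a lower signal in Fut8-/- cells. Fcsk, which phosphorylates free fucose, had signals of 182.9 in Fut8-/- and 199.5 in Fut8+/+ cells at its brightest probe set, 1437337_x_at. The other 2 gave 110.4 in Fut8-/- against 92.3 in Fut8+/+ cells, and 46.4 in Fut8-/- against 49.6 in Fut8+/+ cells. All 3 log2 ratios were above 0 after centring, at 0.09, 0.48 and 0.12, although without centring that of the brightest was -0.13. The dimmest was then also below 0, with a Fut8-/- signal 93.4% of the Fut8+/+ signal as deposited. Fpgt, which joins fucose-1-phosphate to GTP to give GDP-fucose, had 170.2 in Fut8-/- and 306.6 in Fut8+/+ cells at its only probe set, 1429519_at. It was 1.55-fold lower in Fut8-/- cells (log2 ratio -0.63), with 15.0% of measured genes as low or lower.

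Fuom, the mutarotase that interconverts the alpha and beta forms of fucose ahead of Fcsk, stood apart from both. Its single probe set, 1452626_a_at, had a signal of 1.83 in Fut8-/- and 77.4 in Fut8+/+ cells. The Fut8-/- value lay below the floor, so Fuom was at least 6.27-fold lower (log2 ratio at most -2.65). With the floor at the 60th percentile the bound shrank to a log2 ratio of -0.99, and with the measured limit at the 75th percentile the gene was too dim to count. Fuom is not among the 10 genes and was listed as a companion of the salvage route.

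Slc35c1, the Golgi GDP-fucose transporter, was dim on both arrays. Its only probe set, 1452139_at, had a signal of 34.6 in Fut8-/- and 28.7 in Fut8+/+ cells, a log2 ratio of 0.49 after centring. This was the highest ratio among the 10 genes. It passed the measured limit only through the scaled Fut8-/- signal of 40.3, and with the floor at the 60th percentile the ratio was 0.04. Its paralog Slc35c2 had a log2 ratio of 0.16.

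Other nucleotide sugar transporters gave 0 lower and 1 higher by 2-fold or more among 10 measured (median 0.24), against 8.46% and 6.08% of all measured genes. Slc35b2, a transporter of the sulfate donor PAPS, was the higher one at its brightest probe set, with 520.2 in Fut8-/- and 273.5 in Fut8+/+ cells (2.21-fold). Its second probe set went the other way, with 144.7 in Fut8-/- and 255.1 in Fut8+/+ cells (log2 ratio -0.60), so no direction is given for the gene. As the median over both probe sets its log2 ratio was 0.27, and without centring 0.93. The UDP-galactose transporter gene Slc35a2 was the lowest, at 207.2 in Fut8-/- and 468.1 in Fut8+/+ cells (log2 ratio -0.96). Its other probe sets were less low, between -0.57 and -0.08, and the median over its probe sets was -0.49. Without centring 1 gene of this list, Slc35a2 at its brightest probe set, was lower and 0 higher by 2-fold or more. Of all measured genes 11.8% were lower and 4.08% higher in that setting.

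The remaining fucosyltransferase genes of the set were nearly level between the cultures. Fut10 and Fut11 encode family members related by sequence to the alpha1,3-fucosyltransferases. Fut10 had signals of 108.3 in Fut8-/- and 136.2 in Fut8+/+ cells at 1454924_at, and its 3 probe sets had log2 ratios of -0.11, -0.04 and -0.01. Fut11 had 79.5 in Fut8-/- and 102.7 in Fut8+/+ cells at 1434123_at. Its probe sets differed in sign, with -0.15 at the brightest and 0.36 and 0.29 at the other 2, so its direction is not settled.

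None of the further fucosyltransferases passed the measured limit with a higher level in Fut8-/- cells. Of 8 further genes of this class on the array 2 were measured, the protein O-fucosyltransferases Pofut1 and Pofut2, which modify EGF-like and thrombospondin repeats. Pofut1 had 183.4 in Fut8-/- and 267.7 in Fut8+/+ cells (log2 ratio -0.33). Pofut2 had 1247 in Fut8-/- and 2044 in Fut8+/+ cells (-0.49). Fut1, Fut2, Fut4, Fut7, Fut9 and Sec1, which act at the outer ends of glycans, did not reach the measured limit in either culture, with their brightest probe sets between 0.882 and 15.7 in Fut8-/- cells and between 1.06 and 18.5 in Fut8+/+ cells.

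Enzymes that prepare the N-glycan for Fut8 gave 1 lower and 0 higher by 2-fold or more among 7 measured (median -0.34), against 8.46% and 6.08% of all measured genes. Mgat1, whose N-acetylglucosamine is what Fut8 normally requires on its acceptor, had 197.6 in Fut8-/- and 246.6 in Fut8+/+ cells (log2 ratio -0.10). The Golgi mannosidase gene Man2a1 was 3.72-fold lower, with 299.0 in Fut8-/- and 1295 in Fut8+/+ cells. The highest of the list at its brightest probe set was the mannosidase gene Man1a2 (log2 ratio 0.43). Its other probe sets differed in sign, at 0.28, -0.04 and a bound of -0.27. As the median over probe sets Man1a2 was at 0.12, below Man2a2 at 0.32.

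Both fucosidase genes were lower in the Fut8-/- culture, Fuca2 more than Fuca1. Fuca2 had signals of 237.1 in Fut8-/- and 544.7 in Fut8+/+ cells at 1416046_a_at, which made it 1.97-fold lower (log2 ratio -0.98), just short of 2-fold. Of measured genes 8.70% were as low or lower. Its second probe set, 1440313_at, had 10.1 in Fut8-/- and 22.4 in Fut8+/+ cells, at least 1.81-fold lower with the Fut8-/- value under the floor. The third, 1416047_at, had 0.495 in Fut8-/- and 7.44 in Fut8+/+ cells, both under the floor. Without centring the Fuca2 log2 ratio was -1.20, and with each chromosome centred it was -1.07.

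The probe sets of Fuca1 gave closely similar ratios. Its brightest probe set, 1416109_at, had 441.9 in Fut8-/- and 667.7 in Fut8+/+ cells, which was 1.30-fold lower. The other 3 had signals of 183.3, 125.6 and 13.7 in Fut8-/- cells against 286.0, 183.2 and 21.3 in Fut8+/+ cells. All 4 log2 ratios lay between -0.42 and -0.33. At the brightest probe set 25.2% of measured genes had a ratio as low or lower. With each chromosome centred the Fuca1 log2 ratio was -0.18.

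Genes that act with the fucosidases in breaking down N-glycans were lower in part. Of 9 measured among 11 listed, 3 were lower and 0 higher by 2-fold or more, against 8.46% and 6.08% of all measured genes, and the median was -0.90. The mannosidase gene Man2b2 was 2.27-fold lower, with 39.8 in Fut8-/- and 105.2 in Fut8+/+ cells. The lysosomal alpha-mannosidase gene Man2b1 was 2.12-fold lower at its brightest probe set, with 282.1 in Fut8-/- and 694.6 in Fut8+/+ cells, although its dim second probe set had a log2 ratio of 0.79. Aga, whose enzyme splits the bond between N-acetylglucosamine and asparagine, was 2.11-fold lower, with 449.3 in Fut8-/- and 1101 in Fut8+/+ cells.

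The lower ratios did not extend over the whole breakdown list. Ctbs, the chitobiase that cuts the glycan core, had log2 ratios of -0.99, -0.91 and -0.92 at its 3 probe sets. The sialidase gene Neu1 was level at its brightest probe set (-0.04). A dimmer Neu1 probe set, below the floor in Fut8-/- cells, gave a bound of -0.72. The beta-galactosidase gene Glb1 (0.14) and Ctsa (0.13), which encodes the protective protein of Neu1 and Glb1, were slightly above 0. Without centring 5 of the 9 were at least 2-fold lower, against 11.8% of all measured genes in that setting. With the median over probe sets 2 were at least 2-fold lower, against 6.82% of all measured genes in that setting. The list median was then -0.32. Of the 8 measured genes of this list with a promoter window, 2 held CACGTG in any of their listed windows, namely Glb1 and Ctsa. The share of 6.02% is over single windows, not genes, so the 2 are not on the same footing.

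**Figure D2:**
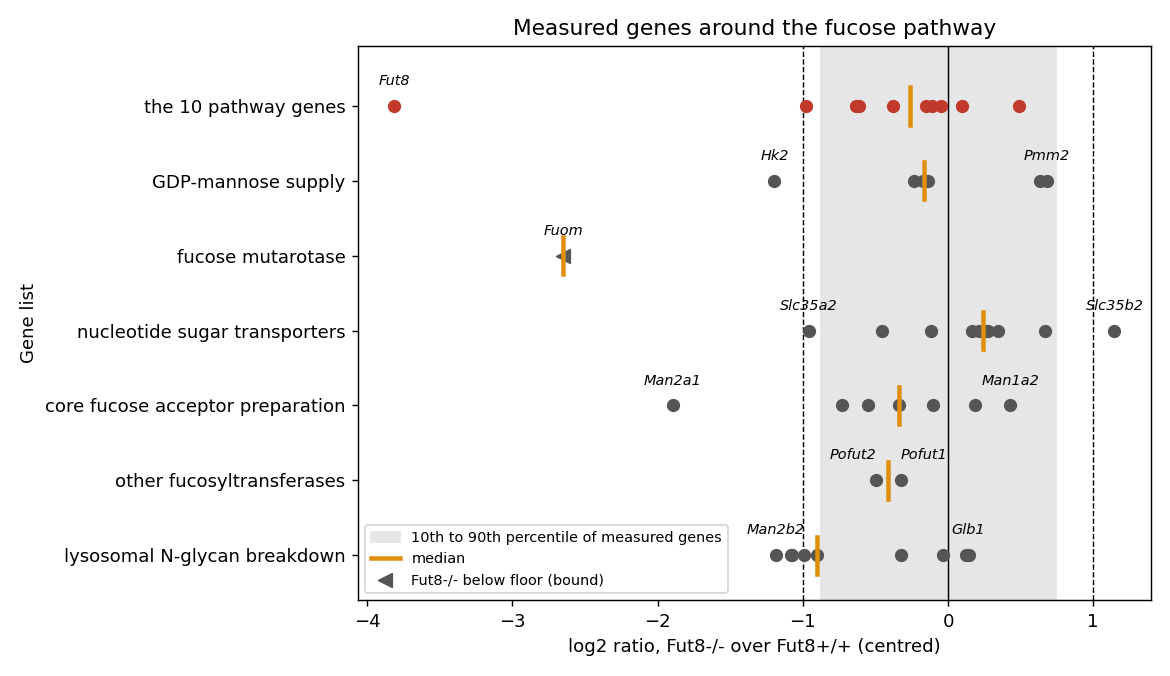
Log2 ratios (Fut8-/- over Fut8+/+, centred) of the measured genes of each list, 1 point a gene, with the list median as a short bar, dashed lines at 2-fold and the 10th to 90th percentile of all measured genes (-0.87 to 0.74) shaded. Fut8, Fuom (a bound) and Man2a1 lie far left of the shading, and the median of the breakdown list is -0.90.

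Over the 10 genes, all of which passed the measured limit at their brightest probe set, 1 was lower and 0 were higher in Fut8-/- cells by 2-fold or more. The background over all measured genes was 8.46% lower and 6.08% higher. The 1 gene is Fut8, whose disruption defines the groups, and the other 9 lay within 2-fold, between -0.98 and 0.49, with a median of -0.15. Of these, 7 had a log2 ratio below 0 and 2 above, while 49.9% of measured genes were below 0. At a limit of 1.5-fold, chosen after seeing the data, 4 of the 10 were lower (Fut8, Fuca2, Fpgt and Gfus) and 0 higher, against 16.6% lower and 14.4% higher of measured genes.

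The only yardstick of error on these arrays is the agreement among probe sets of one gene. Their log2 ratios differed with an SD of 0.40 over 5389 genes that had several above the floor, and with an SD of 0.16 over the 5 of these 10 genes that had several. This spread is among probe sets on the same pair of arrays, and how much of it is technical was not tested. It leaves out the difference between cultures. By size, 5 of the 10 genes (Fut10, Fut11, Gmds, Fcsk and Fuca1) had a ratio smaller than 0.40, and Fut8, Fuca2, Fpgt, Gfus and Slc35c1 had a larger one. Each of these last 5 had only 1 probe set above the floor on both arrays, so none of the larger ratios has such a check.

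**Figure D3:**
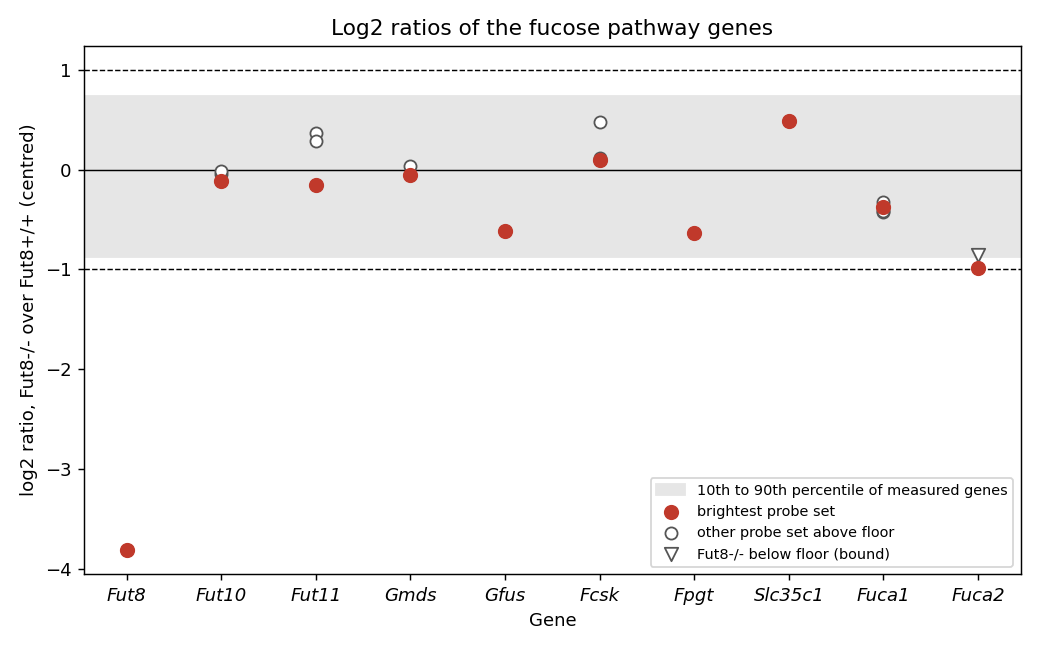
Log2 ratio (Fut8-/- over Fut8+/+, centred) of each of the 10 genes at its brightest probe set (filled) and at other probe sets above the floor (open; triangle, a bound), with dashed lines at 2-fold and the 10th to 90th percentile of measured genes shaded. Fut8 lies at -3.81, Fuca2 at -0.98 beside the 2-fold line, and the other 8 between -0.63 and 0.49.

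Median log2 ratios differed from chromosome to chromosome, so each gene's ratio was set beside its nearest 5 measured genes on either side in the GRCm38.p6 gene order. Fut8 lies on chromosome 12, where 361 measured genes had a median of -0.38. Its 10 neighbours had a median of -0.45 and ranged from -1.07 to 2.01 (a bound for Tmem229b), so that all lay above the Fut8 value of -3.81. The adjoining measured genes were Max (1.16), which encodes the partner of Myc, and Gphn (-0.71), which encodes gephyrin.

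Gmds lies on chromosome 13, where the 377 measured genes had a median of 0.56, so the Gmds ratio minus that of its chromosome was -0.61. With each chromosome centred the Gmds log2 ratio was -0.53. Its adjoining genes were the forkhead factor gene Foxc1 (0.80) and Wrnip1 (0.31). The same difference was -0.87 for Fpgt on chromosome 3 and -1.09 for Fuca2 on chromosome 10. Ratios of the Fuca2 neighbours spread widely, from -2.49 to 2.05. The neighbours of Slc35c1 on chromosome 2 had a median of 0.59, close to its own 0.49, and 4 of the 10 were higher and 1 lower by 2-fold or more, against 6.08% and 8.46% of all measured genes. The lower one was Creb3l1, a bound at -2.43. Fuom, on chromosome 7, was below all 10 of its neighbours, which lay between -1.30 and 0.45.

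**Figure D4:**
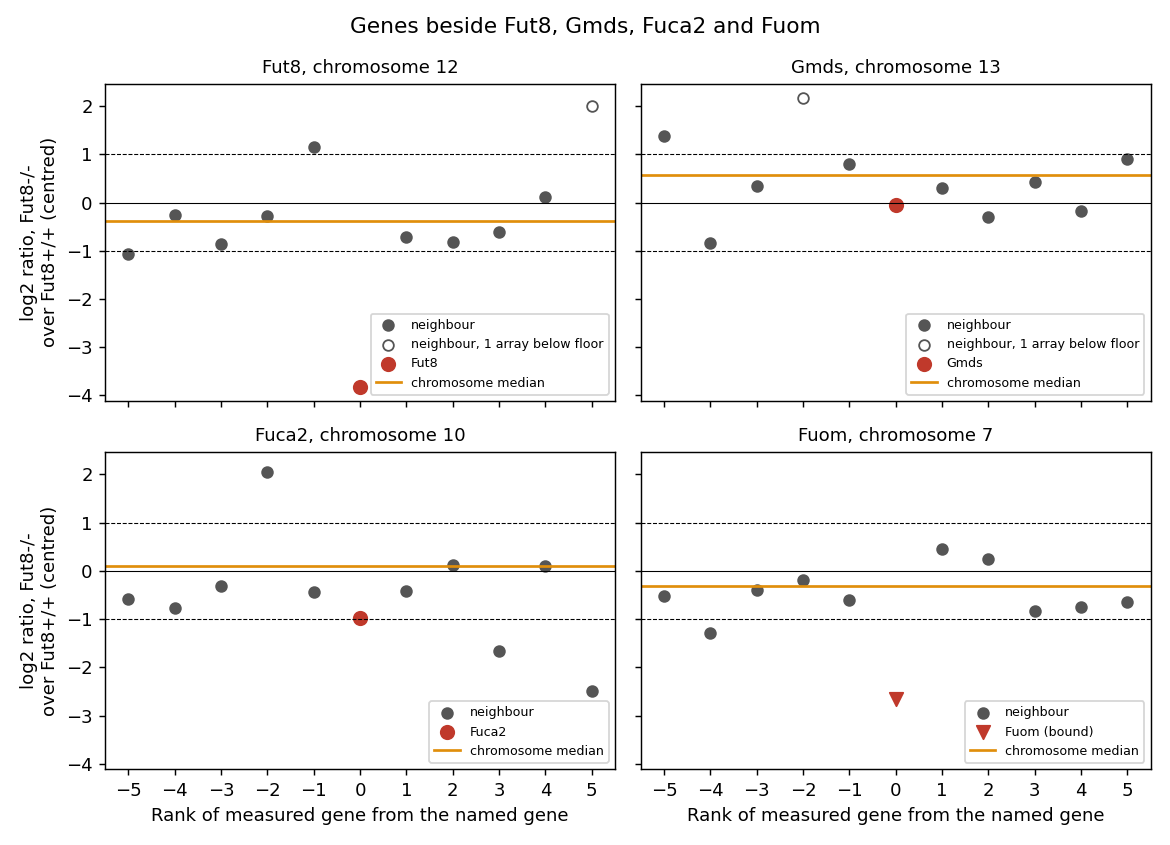
Log2 ratio (Fut8-/- over Fut8+/+, centred) of Fut8, Gmds, Fuca2 and Fuom at rank 0 and of the 5 nearest measured genes on either side, in gene order; the coloured line is the median of the chromosome and open points are bounds. Fut8 at -3.81 and Fuom at -2.65 (a bound) lie below all their neighbours, whereas Gmds and Fuca2 lie among theirs.

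Markers showed fibroblasts in both cultures, at unequal levels. Of 12 fibroblast markers 9 were measured, 4 of them lower and 1 higher in Fut8-/- cells by 2-fold or more, against 8.46% and 6.08% of all measured genes, with a summed signal of 31035 in Fut8-/- and 42098 in Fut8+/+ cells. Log2 ratios were -1.70 for the fibronectin gene Fn1, -1.58 for Col5a1, -1.37 for Col1a1 and -1.17 for Pdgfra, and 1.09 for Pdgfrb. As the median over probe sets 2 were lower and 1 higher by 2-fold or more, against 6.82% and 4.53% of all measured genes in that setting. Col1a1 was then at -0.92 and Pdgfra at -0.51. With the floor at the 60th percentile 3 were lower and 1 higher, against 6.23% and 4.52% of all measured genes in that setting. Pdgfra was then at -0.66. Vimentin (Vim, 0.17) and the collagen gene Col1a2 (-0.04) were within 2-fold, while Dcn, Lum and Thy1 were below the measured limit. All 4 leukocyte, all 4 endothelial and both pluripotency markers did not reach that limit in either culture. Of 5 epithelial markers 2 were measured. Keratin 19 (Krt19) was at least 14.6-fold higher (log2 ratio at least 3.87), with 155.3 in Fut8-/- and 2.08 in Fut8+/+ cells. With the floor at the 60th percentile this bound shrank to a log2 ratio of 2.21. Epcam was 2.43-fold lower, though its log2 ratio was -0.20 with the floor at the 60th percentile and -0.64 as the median over probe sets. Krt8 did not reach the measured limit, with 27.4 in Fut8-/- and 15.5 in Fut8+/+ cells at its brightest probe set (log2 ratio 1.05). Its second probe set went the other way, with a bound of -0.29. The third was below the floor on both arrays, as were Cdh1 and Krt18. The summed signal of the epithelial list was 206.7 in Fut8-/- and 77.5 in Fut8+/+ cells, and without Krt19 the other 4 summed to 51.3 in Fut8-/- and 75.4 in Fut8+/+ cells. The part of these differences in the fucose pathway values was not tested, and fewer cells of a type cannot be told apart from less RNA per cell.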

How the data were processed

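The deposited table holds the authors' intensity for each probe set on each array, as linear signals. GCOS, Affymetrix's array software, produced them, per the submitters' processing notes; the sources used here give neither its version nor its algorithm, scaling or detection calls. The median signal was 16.9 for Fut8-/- and 20.5 for Fut8+/+ cells. Genotypes came from the genotype label.

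Signals were put on the log2 scale. Log2 ratios (Fut8-/- over Fut8+/+) were centred by subtracting the median, -0.22, of those probe sets that exceeded the 40th percentile on each array. Scaled signals below the pooled 40th percentile were raised to it. A ratio with 1 array at this floor is a bound. Signals are printed as deposited, ratios and folds centred and floored. A gene was summarised by its probe set with the highest mean log2 signal. The platform annotation gave 1 symbol for 34945 probe sets, several for 932 and none for 9160, beside 64 controls; 34741 matched the GRCm38.p6 gene table, used for chromosomes and gene order.

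With 1 array per genotype no test was made and the number of arrays limits the precision. Steps were tested on simulated data, in Python 3.11.15 with numpy 2.4.6. The genes, lists and settings were chosen with earlier results of these data known. Outside the 10 genes, those named were list members at least 2-fold different or at either end of their list, adjoining genes and the 3 genes nearest Fut8 in ratio. Others, such as Pmm1, Mgat1, Slc35c2, Ctbs, Neu1, Ctsa, Creb3l1, Krt8 and the fibroblast markers, were named after their values were seen. The 9 alternatives changed centring, floor, filter or gene summary.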

Additional observations from a re-analysis of the deposited data

How the results depend on the processing

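The log2 ratio of Fut8 was -3.81. It was -2.29 with the floor at the 60th percentile, since the Fut8-/- signal is then replaced by a higher one. It was 0 as the median over probe sets, since 2 of the 3 lie below the floor. Under the other 7 alternatives it lay between -4.03 and -3.48. The count of genes at least 2-fold lower was 1, against 8.46% of all measured genes. It was 2 without centring and 2 with each chromosome centred, where Fuca2 joined Fut8. The shares of all measured genes in these settings were 11.8% and 8.1%. It was 0 with the median over probe sets, where Fut8 has no ratio, against 6.82% of all measured genes. At a limit of 1.5-fold, chosen after seeing the data, the count was 4, against 16.6%. The count at least 2-fold higher was 0 under all 9 alternatives, where between 4.08% and 6.51% of all measured genes were. At 1.5-fold it was also 0, against 14.4%. For the other 9 genes, 73 of 76 values under the alternatives lay within the probe set SD of 0.40 from the reported ratio. Many of these could not have differed, so the count does not measure robustness. A changed filter or a lower floor left these ratios as they were. A gene with a single probe set cannot move under the median, and leaving out centring shifts ratios by less than 0.40. The exceptions were Gmds with each chromosome centred (-0.53), Slc35c1 with the floor at the 60th percentile (0.04) and Fut11 as the median over probe sets (0.29). Gfus, Fpgt, Fuca1, Fuca2, Gmds and Fut10 were below 0 under every alternative that measured them. Without centring all ratios above the floor were lower by 0.22, and the measured genes that were lower and higher by 2-fold numbered 1205 and 416, in place of 860 and 618. No paired analysis was possible because each genotype has 1 array, and no replicate could be left out. Dim probe sets limit what can be said of Fut8 in Fut8-/- cells, Slc35c1 and the fucosyltransferases of outer chains.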

Other observations

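The 3 measured genes whose log2 ratio lay nearest that of Fut8 were Medag, Tmem159 and Oas1a. Likeness was the difference in log2 ratio over the 2 arrays, 0.014 for Tmem159 and 0.020 for Oas1a. Medag had a signal of 6.94 in Fut8-/- and 173.5 in Fut8+/+ cells, with the Fut8-/- value below the floor, so its ratio is a bound set by the floor and its likeness has no exact value. Tmem159 had 10.7 in Fut8-/- and 176.5 in Fut8+/+ cells, and the interferon-induced gene Oas1a had 131.0 in Fut8-/- and 2115 in Fut8+/+ cells. Over 1 pair of arrays any genes with the same ratio are equally alike.

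Engase, the cytosolic glycosidase that frees N-glycans from misfolded proteins, was not measured, with signals of 3.29 in Fut8-/- and 28.9 in Fut8+/+ cells. Next to Slc35c1 on chromosome 2, the sulfotransferase gene Chst1 was 4.16-fold higher, with 88.5 in Fut8-/- and 24.8 in Fut8+/+ cells. The measured gene on its other side, the clock gene Cry2, had a log2 ratio of 0.40. The genes beside Fuca2, Ltv1 and Pex3, had log2 ratios of -0.45 and -0.41, and those beside Fuca1, Pnrc2 and Lypla2, of -0.34 and -0.14.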
